A study of Mus musculus with 35 samples.

Results

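The genes described here make, recycle and remove the deoxynucleotides (dNTPs) from which DNA is built: Rrm1, Rrm2, Rrm2b, Tyms, Tk1, Dut, Dck, Dctpp1 and Samhd1. They were chosen by name, 9 genes of the 55401 in the count table, and all 9 passed the filter on low values that left 17612 genes for testing. The mRNA of CD45+ microglia from whole brains of wild-type C57BL/6 mice was sequenced at postnatal day 6 (P6), day 15 (P15) and 8 weeks, with 1 library per mouse and no treatment. CD45, a surface protein of haematopoietic cells and of microglia, was used to capture microglia by immunopanning, in which cells bind to an antibody-coated dish. The capture therefore takes any CD45+ cell, and cells or debris that adhere without CD45 can come with it. The comparisons used 10 mice at P6 (4 females and 6 males), 12 at P15 (6 and 6) and 12 at 8 weeks (6 and 6). The study removed an outlier mouse, and P6 female 6, which is absent from the mice its tables list, was left out.

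Ribonucleotide reductase converts ribonucleotides into deoxynucleotides and is built from the large subunit RRM1 and a small subunit, either RRM2, which is made in S phase and destroyed in mitosis, or RRM2B, a p53-inducible form that serves DNA repair and mitochondrial DNA in cells outside S phase. Thymidylate is made from deoxyuridylate by thymidylate synthase (TYMS) or salvaged from thymidine by thymidine kinase 1 (TK1), while deoxycytidine kinase (DCK) salvages other deoxynucleosides. SAMHD1 breaks dNTPs down and keeps their pools low in myeloid cells that do not divide, which is known for restricting retroviruses. Microglia divide in the early postnatal brain and seldom in the healthy adult brain.

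The depth on genes ran from 23316107 to 38965078 fragments, and 3 counts, taken as the floor, corresponded to 0.0722 to 0.137 CPM. CPM are counts scaled to a common library total, here with TMM factors. Every library held the 6 microglia markers, among them Tmem119, P2ry12 and Sall1, whose summed level was 5597 to 10063 CPM at P6, 12153 to 23881 CPM at P15 and 15833 to 22512 CPM at 8 weeks. Markers of other cells were present too. The 9 markers of neural progenitors and immature neurons summed to 661 to 2037 CPM at P6, 124 to 845 CPM at P15 and 89.0 to 206 CPM at 8 weeks, and none of them was at 0 in any mouse. They are called progenitor markers below for short, although they cover immature neurons too. P15 male 1 stood apart from the other P15 mice, with the highest summed levels of neuron (693 CPM), progenitor (845 CPM) and oligodendrocyte lineage (3315 CPM) markers at that age and the lowest of monocyte and macrophage markers (289 CPM). Since these are bulk samples, fewer cells of a type and less RNA per cell cannot be told apart in any of the differences below.

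The genes of dNTP synthesis and salvage were highest at P6 and fell with age, whereas Rrm2b rose and Samhd1 rose by less than 2-fold, a direction that turned with neuron and progenitor markers as a covariate (log2FC from P6 to 8 weeks -0.45). Calls were made with edgeR's glmTreat, which tests for a change beyond 2-fold, at a false discovery rate (FDR, Benjamini-Hochberg) under 0.05. From P6 to 8 weeks, 7 of the 9 genes were called lower, against a background of 12.4% of all genes tested, and 1 was called higher, against 11.5%. Their median log2 fold change (log2FC) was -2.54, beside a median of 0.04 over all genes. From P6 to P15, 5 were called lower (background 4.85%) and 0 higher (4.87%). From P15 to 8 weeks, 2 were called lower (3.07%) and 0 higher (1.2%). Without a fold threshold (edgeR's glmQLFTest), the counts were 7 lower and 2 higher from P6 to 8 weeks, beside 36.6% and 37.8% of all genes. They were 7 lower and 1 higher from P6 to P15, beside 31.4% and 30.4%, and 6 lower and 2 higher from P15 to 8 weeks, beside 23.9% and 24%. The levels of 7 genes at 8 weeks lay wholly below those at P6, and those of 1 wholly above, which held for 14.8% of all genes in each direction. Between P6 and P15 the levels of 6 genes lay wholly lower and of 0 wholly higher (7.72% and 5.25% of all genes), and between P15 and 8 weeks those of 3 and 0 did so (1.72% and 1.65%).

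**Figure D1:**
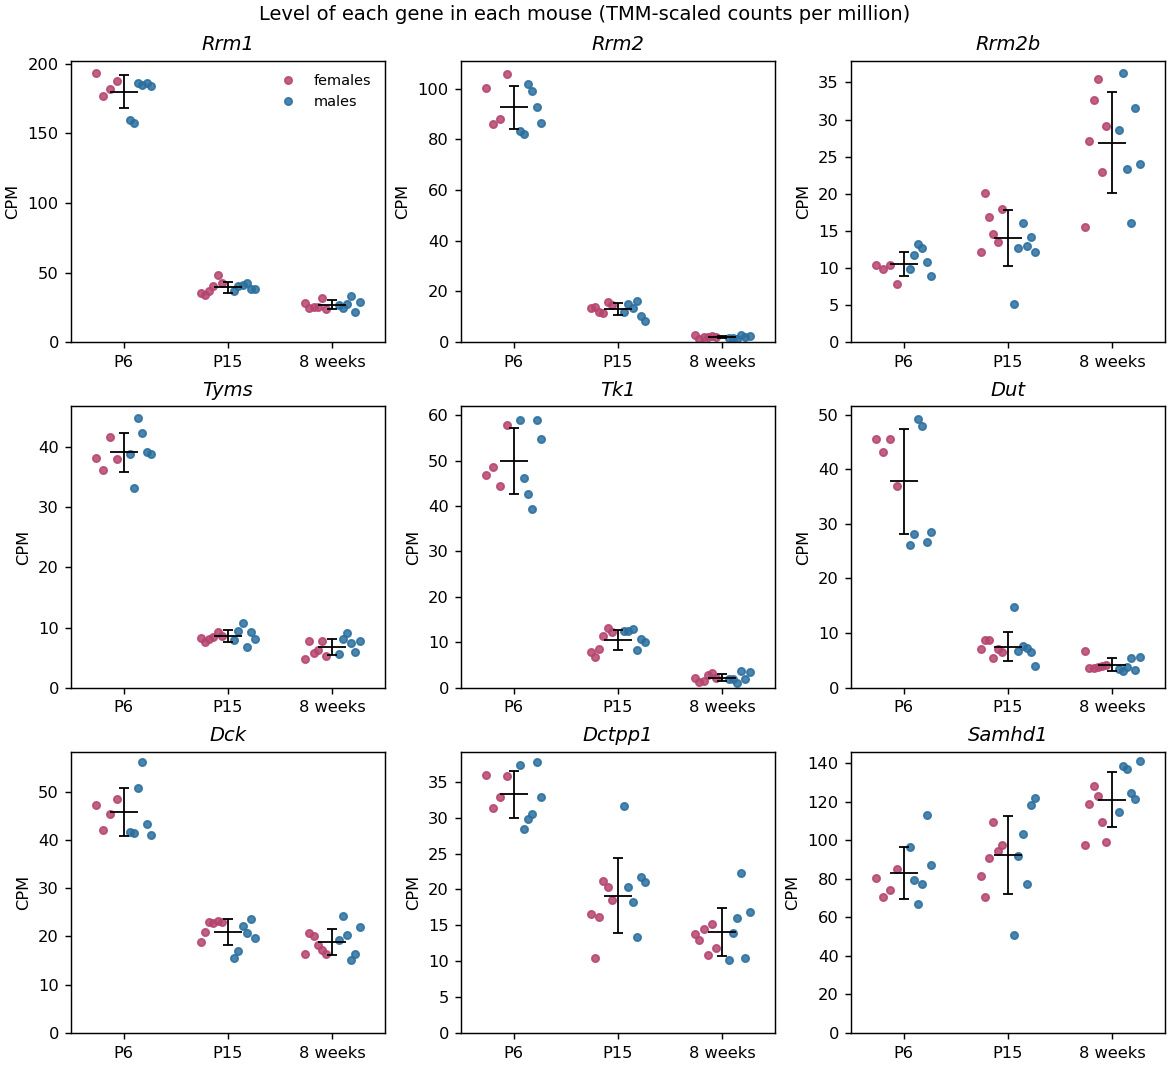
Level of each of the 9 genes (vertical axis, TMM-scaled CPM, from 0) in each mouse by age; each point is 1 mouse, females left and males right, and the bar is the mean ± SD over the mice of an age. Rrm2 lay between 82.3 and 106 CPM at P6 and between 1.12 and 2.74 CPM at 8 weeks, while Rrm2b at 8 weeks (15.5 to 36.3 CPM) lay above all P6 mice (7.89 to 13.2 CPM).

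Rrm2 (ENSMUSG00000020649, chr12:24708241-24714146, plus strand, GRCm38), the S-phase small subunit, had the largest fall of the 9 genes. Its level was 82.3 CPM in the lowest, 90.5 in the median and 106 in the highest P6 mouse, and 8.29, 13.5 and 16.2 CPM at P15. At 8 weeks it was 1.12, 2.11 and 2.74 CPM, from 32 to 99 fragments per mouse. No mouse of 1 age overlapped the range of another age. The fall was 7.10-fold from P6 to P15 (log2FC -2.83 ± 0.12 SE, edgeR glmTreat FDR = 8.90e-15) and a further 6.36-fold from P15 to 8 weeks (log2FC -2.67 ± 0.12, FDR = 3.31e-13). The level at 8 weeks was thus 45.2-fold below that at P6.

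Rrm1 (ENSMUSG00000030978, chr7:102441695-102469771, plus strand), the large subunit that pairs with either small subunit, fell mostly in the first interval. It was at 158, 184 and 193 CPM in the lowest, median and highest P6 mouse, at 33.6, 39.2 and 48.0 CPM at P15 and at 21.6, 26.2 and 32.9 CPM at 8 weeks. The 3 ages did not overlap. The change was 4.59-fold from P6 to P15 (log2FC -2.20 ± 0.07, edgeR glmTreat FDR = 2.46e-16) and 1.47-fold from P15 to 8 weeks, which passed only the test without a fold threshold (log2FC -0.55 ± 0.06, glmQLFTest FDR = 3.56e-08). On the log2 scale, 79.9% of the change of Rrm1 from P6 to 8 weeks was reached by P15, beside 51.4% for Rrm2.

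Rrm2b (ENSMUSG00000022292, chr15:37923952-37961318, minus strand), the small subunit for cells outside S phase, moved the other way. It was at 7.89, 10.4 and 13.2 CPM at P6 (lowest, median, highest), at 5.13, 13.8 and 20.1 CPM at P15 and at 15.5, 27.9 and 36.3 CPM at 8 weeks. The P6 and 8-week mice did not overlap, and the P15 mice overlapped both. The rise from P6 to 8 weeks was 2.59-fold (log2FC 1.37 ± 0.16, edgeR glmTreat FDR = 0.0127). The steps, log2FC 0.42 ± 0.16 (glmQLFTest FDR = 0.0199) to P15 and 0.95 ± 0.15 (FDR = 4.19e-06) from P15 to 8 weeks, passed only without a fold threshold. The call past 2-fold was not made by DESeq2 (FDR = 0.0924), by limma-voom with TREAT (FDR = 0.116), with library size scaling (FDR = 0.105), with neuron and progenitor markers as a covariate (FDR = 0.309) or without P6 female 5 (FDR = 0.0555), where the log2FC was 1.23 to 1.37. Within P15 and within 8 weeks, the extremes of Rrm2b went with those of the microglia markers in some mice and not in others. The part of the captured cells' makeup in the Rrm2b values was not tested. At P15 the lowest Rrm2b (5.13 CPM, male 1) and the highest (20.1 CPM, female 2) were in the mice with the lowest summed microglia markers of that age (12371 and 12153 CPM), and at 8 weeks the lowest Rrm2b values (15.5 CPM in female 1 and 16.1 CPM in male 4) were in the mice with the lowest and the highest markers (15833 and 22512 CPM).

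Promoter windows of RefSeq on GRCm38.p6, from 250 bases before to 50 bases after the annotated start, were at hand for 8 of the 9 genes (all but Rrm2b). Stretches upstream of the start are shown for the paired subunits Rrm1 and Rrm2, for Tyms and for Samhd1. From P6 to P15 Rrm1, Rrm2 and Tyms were called lower and Samhd1 was not. Tk1 and Dut, called lower there too, are not shown, and only Rrm2 of the genes shown was called lower from P15 to 8 weeks. They run from 100 to 1 bases before the RefSeq start for Rrm1 and Tyms, from 113 to 14 for Rrm2 and from 250 to 170 for Samhd1, whose GENCODE gene begins upstream of the RefSeq start. Each is written 5′ to 3′ on the gene's strand, and capitals mark the CCAAT box (CCAAT) and the GC box (GGGCGG).
Rrm1, chr7:102441595-102441694, plus strand: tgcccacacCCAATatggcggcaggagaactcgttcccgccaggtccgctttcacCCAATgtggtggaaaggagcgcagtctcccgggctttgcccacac
Rrm2, chr12:24708141-24708240, plus strand: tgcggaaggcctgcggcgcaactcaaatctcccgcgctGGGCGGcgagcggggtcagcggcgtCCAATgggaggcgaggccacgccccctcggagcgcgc
Tyms, chr5:30073626-30073725, minus strand: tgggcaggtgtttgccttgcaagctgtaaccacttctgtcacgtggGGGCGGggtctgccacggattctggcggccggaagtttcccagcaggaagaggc
Samhd1, chr2:157135266-157135346, minus strand: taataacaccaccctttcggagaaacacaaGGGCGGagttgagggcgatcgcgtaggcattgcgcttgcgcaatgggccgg

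The Rrm1 stretch held CCAAT at 91 to 87 and again at 45 to 41 bases before the start, and the Rrm2 stretch held it once, at 50 to 46 bases before. Searched on both strands of the whole window, CCAAT was found in 3 of the 8 genes (Rrm1, Rrm2 and Dctpp1), beside 37.4% of 32851 promoters, and GGGCGG in 7 of the 8 (all but Rrm1), beside 35.7%. The E2F site in its forms TTTGGCGC, TTTCCCGC, TTTGCCGC and TTTCGCGC was in none of the 8 windows (0 of 8) and in 2.26% of all promoters. The CHR element, TTTGAA or TTCGAA, was in that of Dck alone (1 of 8), beside 19.2%. An interferon-response element, taken as a pair of TTTC runs separated by any 2 bases, was in 0 of the 8 and in 3.44% of all promoters. The reverse strand of TTTCCCGC can share letters with a GC box. A match of letters is not a bound site, and a missing match covers this window alone.

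Tyms (ENSMUSG00000025747, chr5:30058202-30073617, minus strand), which methylates deoxyuridylate to thymidylate, was at 33.2, 38.9 and 44.8 CPM in the lowest, median and highest P6 mouse, at 6.75, 8.36 and 10.7 CPM at P15 and at 4.78, 6.81 and 9.14 CPM at 8 weeks. All P15 and 8-week mice lay below all P6 mice, and the 2 later ages overlapped. The fall to P15 was 4.56-fold (log2FC -2.19 ± 0.09, edgeR glmTreat FDR = 6.14e-13), and 86.3% of the log2 change to 8 weeks was reached by then. The later change was log2FC -0.35 ± 0.09 (glmQLFTest FDR = 0.00202). A processed pseudogene, Tyms-ps on chromosome 10, held at most 2 counts in any mouse.

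Tk1 (ENSMUSG00000025574, chr11:117815526-117826092, minus strand), the S-phase salvage kinase for thymidine, fell in both intervals as Rrm2 did. It was at 39.4, 47.7 and 59.0 CPM at P6, at 6.62, 11.01 and 13.2 CPM at P15 and at 1.02, 1.97 and 3.64 CPM at 8 weeks, the last from 26 to 97 fragments per mouse. The 3 ages did not overlap. The change was log2FC -2.24 ± 0.17 to P15 (edgeR glmTreat FDR = 4.87e-08) and -2.26 ± 0.17 from P15 to 8 weeks (FDR = 1.23e-07), which made 22.6-fold in all. Afmid, whose exons overlap those of Tk1 on the opposite strand, was at 1.20 to 2.34 CPM at P6 and 2.66 to 5.82 CPM at 8 weeks, and the counting kept the strands apart.

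Dut (ENSMUSG00000027203, chr2:125247190-125258608, plus strand) encodes the dUTPase that keeps uracil out of DNA and supplies deoxyuridylate to TYMS. It was at 26.0, 40.1 and 49.2 CPM at P6, at 4.01, 7.04 and 14.8 CPM at P15 and at 2.98, 3.78 and 6.70 CPM at 8 weeks. The P6 mice lay above all others, and the P15 mice overlapped those of 8 weeks. The fall was 5.10-fold to P15 (log2FC -2.35 ± 0.17, edgeR glmTreat FDR = 1.76e-08) and 9.13-fold to 8 weeks (log2FC -3.19 ± 0.18, FDR = 1.64e-13).

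At P6, the spread of Dut moved with the markers of neural progenitors and immature neurons in the 10 mice compared. Males 1, 2, 5 and 6 had 26.0, 28.2, 26.6 and 28.5 CPM of Dut and 710, 1272, 661 and 963 CPM of summed progenitor markers. The other 6 P6 mice had 37.0 to 49.2 CPM of Dut and 1573 to 2037 CPM of these markers. Other lists split the 10 mice in the same way, so the split is not particular to progenitor markers. Males 1, 2, 5 and 6 had more summed microglia markers (6921 to 10063 CPM, beside 5597 to 6588 CPM). They had fewer summed neuron markers (276 to 592 CPM, beside 681 to 926 CPM). P6 female 6, left out, went against the split, with 29.3 CPM of Dut and 2315 CPM of progenitor markers. P15 male 1 had the highest of both at P15 (14.8 CPM and 845 CPM), and so did 8-week female 1 at 8 weeks (6.70 CPM and 206 CPM). Other mice of 8 weeks did not follow, since male 6 had 5.62 CPM of Dut with 97.8 CPM of the markers and male 1 had 3.37 CPM with 132 CPM. With the mean log2 level of neuron and progenitor markers as a covariate, a measure whose ranges at P6 and 8 weeks do not overlap, the log2FC of Dut from P6 to 8 weeks was -1.87 (FDR = 0.00602). All 9 progenitor markers were called lower from P6 to 8 weeks, and their part in the fall of Dut was not tested. Tk1 had another order within P6. In P6 males 1, 5 and 6, whose progenitor markers were the lowest of that age, Tk1 was at 59.0, 58.9 and 54.7 CPM, beside 39.4 to 57.9 CPM in the other P6 mice, and Rrm2 was at 83.5, 92.8 and 86.4 CPM, beside 82.3 to 106 CPM.

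**Figure D2:**
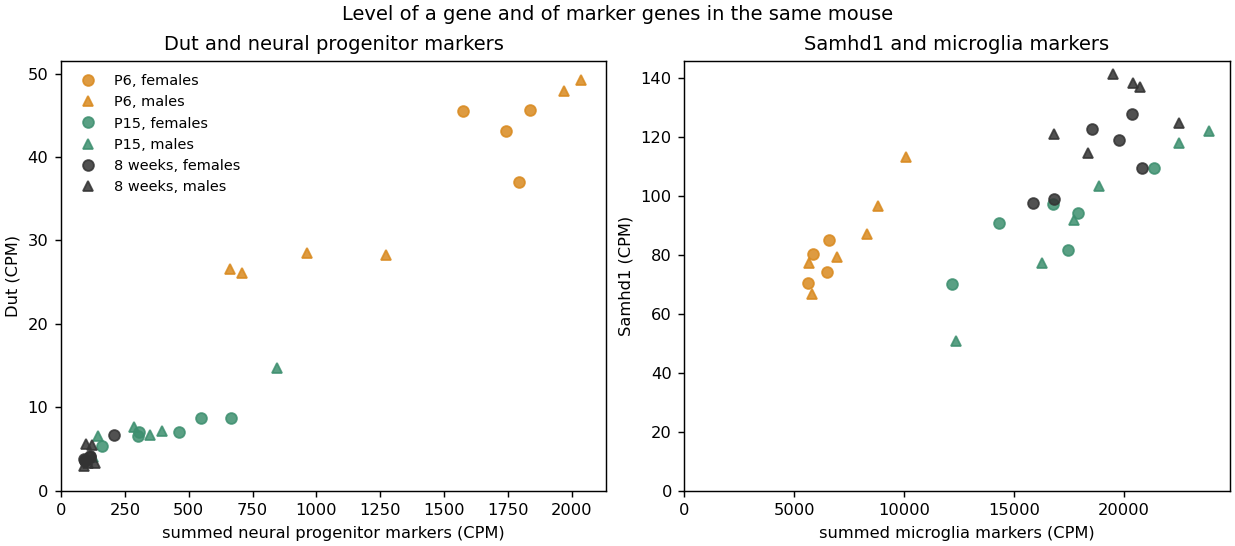
Left, Dut (vertical axis, CPM) against the summed level of 9 neural progenitor and immature neuron markers (horizontal axis, CPM); right, Samhd1 against the summed level of 6 microglia markers, both in CPM. Each point is 1 mouse, coloured by age, with circles for females and triangles for males; the P6 mice with 26.0 to 28.5 CPM of Dut are those with 661 to 1272 CPM of progenitor markers, and P15 male 1 and P15 female 2, low for microglia markers among the P15 mice, had the lowest Samhd1 at that age (50.8 and 70.3 CPM).

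Dck (ENSMUSG00000029366, chr5:88764996-88783281, plus strand), the salvage kinase for deoxycytidine and purine deoxynucleosides, is active outside S phase too, and its level fell less than that of Tk1. It was at 41.0, 44.4 and 56.2 CPM at P6, at 15.6, 21.6 and 23.6 CPM at P15 and at 15.2, 18.7 and 24.2 CPM at 8 weeks. The P6 mice stood above the rest, and the 2 later ages overlapped. The fall to P15 was 2.19-fold (log2FC -1.13 ± 0.08), which was lower without a fold threshold (glmQLFTest FDR = 2.46e-13) but not past 2-fold (edgeR glmTreat FDR = 0.141), except with library size scaling (FDR = 0.00953). The fall to 8 weeks was 2.43-fold and past 2-fold (log2FC -1.28 ± 0.08, FDR = 0.00102). From P15 to 8 weeks the log2FC was -0.15 ± 0.08 (glmQLFTest FDR = 0.113).

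Dctpp1 (ENSMUSG00000042462, chr7:127256959-127260709, minus strand) encodes a pyrophosphatase that removes dCTP and its modified forms. It was at 28.4, 32.9 and 37.8 CPM at P6, at 10.5, 19.4 and 31.6 CPM at P15 and at 10.2, 13.9 and 22.3 CPM at 8 weeks. The P15 mice overlapped both other ages, and the 8-week mice lay below all P6 mice. The change from P6 to 8 weeks was log2FC -1.25 ± 0.13 (edgeR glmTreat FDR = 0.0381). This call depended on single mice, since leaving out any of P6 female 1, P6 males 1 and 5, 8-week females 4 and 6 and 8-week males 1 and 5 took the FDR past the threshold, to 0.0729 at most, with log2FC between -1.34 and -1.20 over all 34 mice left out in turn. It was not made by DESeq2 (FDR = 0.253) or limma-voom with TREAT (FDR = 0.0758) either, nor with P6 female 6 included (FDR = 0.0837). The steps were log2FC -0.81 ± 0.13 (glmQLFTest FDR = 3.03e-06) and -0.44 ± 0.12 (FDR = 0.00464).

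Samhd1 (ENSMUSG00000027639, chr2:157097533-157135265, minus strand), the dNTP triphosphohydrolase, was present at every age and rose by less than 2-fold. It was at 66.8, 79.8 and 113 CPM in the lowest, median and highest P6 mouse, at 50.8, 93.2 and 122 CPM at P15 and at 97.5, 122 and 141 CPM at 8 weeks. The 3 ages overlapped. The log2FC was 0.17 ± 0.11 from P6 to P15 (glmQLFTest FDR = 0.179), 0.39 ± 0.10 from P15 to 8 weeks (FDR = 0.00269) and 0.56 ± 0.11 from P6 to 8 weeks (1.47-fold, FDR = 3.76e-05), and none passed 2-fold (glmTreat FDR = 1).

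Samhd1 and the microglia markers were high or low in several, but not all, of the same mice of an age. At P15, males 1 and 4 and female 2, with 50.8, 77.3 and 70.3 CPM of Samhd1, had 12371, 16282 and 12153 CPM of summed microglia markers, while male 6, with 122 CPM of Samhd1, had 23881 CPM. At P6 the highest Samhd1 (113 CPM) was in male 5, which also had the highest microglia markers (10063 CPM), and at 8 weeks the lowest of both was in female 1 (97.5 CPM and 15833 CPM). Other mice departed from this. At P15, female 3 had 90.9 CPM of Samhd1 with 14306 CPM of the markers, and at 8 weeks male 6 had the highest Samhd1 (141 CPM) with 19493 CPM and male 5 had 121 CPM with 16818 CPM. Of the 6 microglia markers, 4 were called higher from P6 to 8 weeks and 0 lower. With the neuron and progenitor covariate the sign of all 3 Samhd1 changes turned, to log2FC -0.27, -0.17 and -0.45, and none of these was past 2-fold. The part of the captured cells' makeup in the Samhd1 values was not tested.

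**Figure D3:**
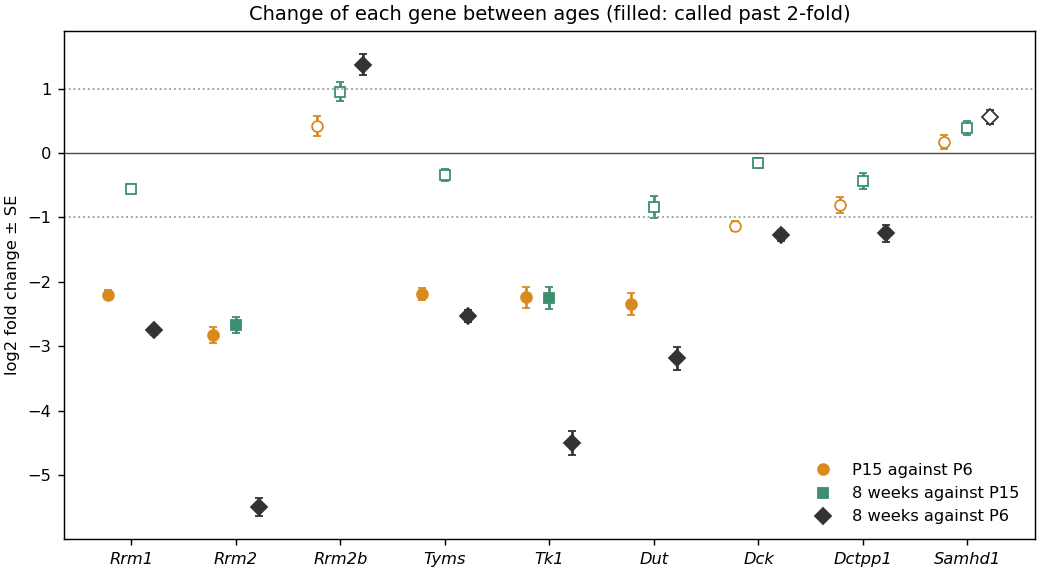
Log2 fold change ± SE (vertical axis) of each of the 9 genes in the 3 age contrasts, from the edgeR fit over 34 mice; filled symbols were called past 2-fold, open symbols were not, and dotted lines mark 2-fold. Rrm2 and Tk1 have filled symbols below the line in each contrast, whereas Rrm2b and Samhd1 lie above 0 throughout.

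Set on a common scale, as CPM per kilobase of each gene's principal transcript, the order of the genes changed with age. At P6 the highest were Dctpp1 (49.2 ± 4.87 CPM per kb, SD, n = 10), Rrm1 (45.0 ± 2.98) and Rrm2 (42.2 ± 3.88), whose spreads overlapped, followed by Tk1 (34.6 ± 5.02), Samhd1 (21.2 ± 3.47), Dut (19.4 ± 4.90), Dck (14.9 ± 1.62), Tyms (12.4 ± 1.02) and Rrm2b (2.32 ± 0.359). The spreads of Rrm2 and Tk1, of Samhd1 and Dut, of Dut and Dck and of Dck and Tyms overlapped too, so these ranks are not separated. At 8 weeks Samhd1 was first (30.8 ± 3.64, n = 12) and Dctpp1 next (20.8 ± 5.00). Then came Rrm1 (6.71 ± 0.810), Dck (6.12 ± 0.884) and Rrm2b (5.90 ± 1.49), which overlapped in their spread. Dut (2.15 ± 0.578), Tyms (2.14 ± 0.430), Tk1 (1.53 ± 0.598) and Rrm2 (0.938 ± 0.242) were last, each overlapping the next in its spread. These levels depend on the transcript length used, and the ratios below share that dependence in their level but not in their change with age.

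In a ratio within a mouse the scaling of the library cancels, apart from the prior count of 2 in the log2 levels, which draws the ratios of the lowest genes, Rrm2 and Tk1 at 8 weeks, slightly towards 0. With a prior count of 0.5 the change in Rrm2 to Rrm1 from P6 to 8 weeks was -2.78 in place of -2.74 (log2). The log2 ratio of Rrm2 to Rrm1, small to large subunit, was -0.09 ± 0.08 (SD, n = 10) at P6, close to equal levels, then -0.73 ± 0.25 (n = 12) at P15 and -2.84 ± 0.35 (n = 12) at 8 weeks. It fell by 2.74 on the log2 scale in all, 6.70-fold. The log2 ratio of Rrm2b to Rrm2, the alternative small subunits, was -4.19 ± 0.26 at P6, so that Rrm2 was 18.2-fold above Rrm2b, and -0.999 ± 0.52 at P15. At 8 weeks it was 2.61 ± 0.67, with Rrm2b 6.12-fold above Rrm2. Per length, Rrm2 exceeded Rrm2b in every P6 and P15 mouse, and Rrm2b exceeded Rrm2 in every 8-week mouse, where the log2 ratio was at least 1.43. The order at P15 rests on the lengths used. In CPM, Rrm2 was at 13.1 ± 2.33 and Rrm2b at 14.0 ± 3.75 (SD) at that age.

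The log2 ratio of Samhd1 to Rrm2, breakdown against synthesis, rose from -1.01 ± 0.28 at P6 to 1.96 ± 0.53 at P15 and 5.04 ± 0.48 at 8 weeks, which is 32.8-fold more Samhd1 than Rrm2 per length in the adult. The log2 ratio of the salvage kinases, Dck to Tk1, was -1.21 ± 0.32, -0.09 ± 0.39 and 2.05 ± 0.66. All 12 differences, 4 ratios in 3 contrasts, gave p = 2e-05 (two-sided permutation test, 100000 permutations), the smallest these permutations can give, and 2e-05 after Benjamini-Hochberg adjustment over the 12. The mice of each pair of ages did not overlap, except for Dck to Tk1 at P6 and P15. The ratios with Rrm2 share that gene, so they are not independent of each other. Each change in a ratio restates the changes of its 2 genes given above, so these p-values add no separate support. The rise of Samhd1 to Rrm2 from P6 to 8 weeks was mostly the fall of Rrm2 (log2FC -5.50), beside 0.56 for Samhd1.

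**Figure D4:**
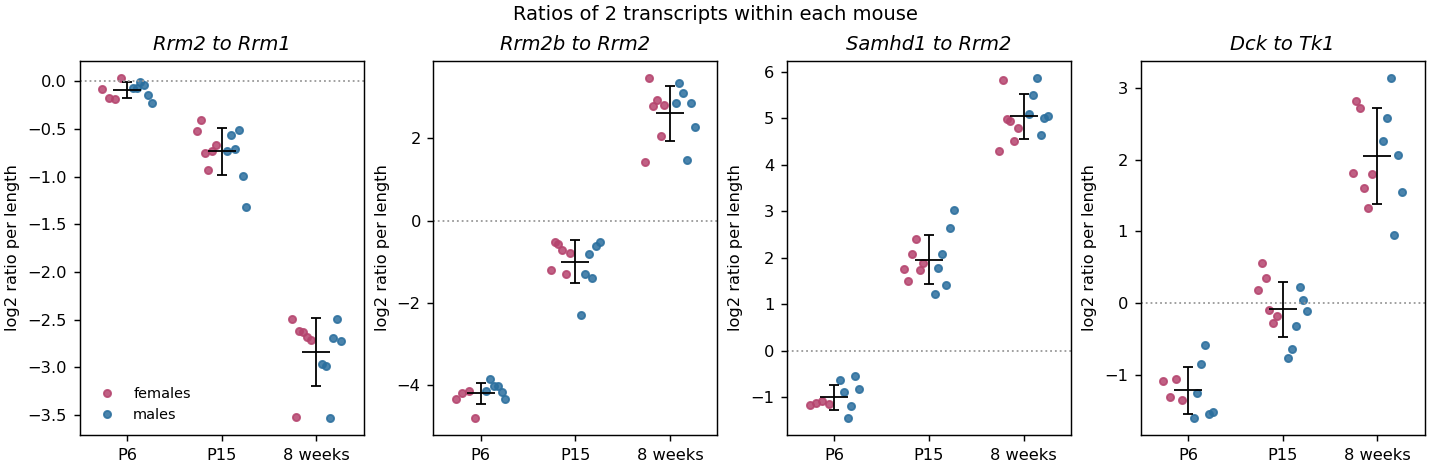
Log2 ratio of 2 transcripts per length (vertical axis, 0 is equal levels) in each mouse by age; points are mice, females left and males right, and bars are mean ± SD. The Rrm2b to Rrm2 ratio lies below 0 in all P6 and P15 mice and above 0 in all 12 mice of 8 weeks.

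Males and females did not differ detectably in these genes. At P6, P15 and 8 weeks 0 of the 9 were called past 2-fold between the sexes (edgeR glmTreat), beside 0.0454% of all genes at each age, and 0 had an unadjusted p under 0.05 without a fold threshold, beside 1250, 3200 and 518 of the 17612 genes at the 3 ages. The largest differences between males and females were 0.31 (log2) for Dut at P6, 0.38 for Rrm2b at P15 and 0.23 for Tyms at 8 weeks. The interaction of sex with the change from P6 to 8 weeks (glmQLFTest) was called for 0 of the 9 and for 0% of all genes, with an unadjusted p under 0.05 for 898 of all genes and for 0 of the 9. DESeq2 also called 0 of the 9 in each of these comparisons. In males alone, the changes from P6 to 8 weeks were not past 2-fold for Rrm2b (log2FC 1.25, glmTreat FDR = 0.167) and Dctpp1 (log2FC -1.13, FDR = 0.331), and in females alone both were called.

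The enzymes on either side of these genes were examined by lists, whose counts for P6 to 8 weeks stand beside the 12.4% of all genes called lower and the 11.5% called higher. Of the thymidylate cycle and deoxyuridylate supply, 4 of 6 genes tested were called lower from P6 to 8 weeks and 0 higher, with a median log2FC of -1.25. The serine hydroxymethyltransferases Shmt1 (log2FC -2.24 ± 0.12 SE) and Shmt2 (-1.30 ± 0.10) and the thymidylate kinase Dtymk (-1.19 ± 0.07) were among those called. Of 6 genes listed as ribonucleotide reductase electron donors, 3 were called lower and 0 higher: the thioredoxin reductase Txnrd1 (-1.67 ± 0.08), thioredoxin Txn1 (-1.59 ± 0.08) and the glutaredoxin Glrx3 (-1.18 ± 0.06). Whether each of them supplies electrons to the enzyme was not tested. Of 16 genes of de novo pyrimidine and purine synthesis, 4 were called lower and 0 higher, namely Impdh1 (-1.83 ± 0.13) and Impdh2 (-1.20 ± 0.08), which open the guanine branch, the CTP synthase Ctps (-1.79 ± 0.08) and Paics (-1.12 ± 0.05), and the median was -0.54. Between P6 and P15, 2 of the thymidylate cycle, 2 electron donors and 1 of de novo synthesis were called lower (background 4.85%), and between P15 and 8 weeks 0 genes of these 3 lists were (3.07%). Without a fold threshold, from P15 to 8 weeks, 4 of the 6 thymidylate cycle genes were lower and 1 higher, 2 of the 6 electron donors were lower and 1 higher, and 3 of the 16 de novo synthesis genes were lower and 4 higher (median log2FC 0.09), beside 23.9% and 24% of all genes.

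Among 13 nucleoside and nucleotide kinases tested, 3 were called lower and 0 higher from P6 to 8 weeks, with a median log2FC of -0.72. They were the uridine-cytidine kinase Uck2 (-3.25 ± 0.15) and the nucleoside diphosphate kinases Nme4 (-2.28 ± 0.11) and Nme1 (-1.59 ± 0.11). The kinases that salvage deoxynucleosides in mitochondria, named here after their values were seen, had the opposite sign to Tk1. Tk2, the mitochondrial thymidine kinase, was at 53.9 ± 8.00, 74.1 ± 13.9 and 108 ± 16.6 CPM at P6, P15 and 8 weeks (log2FC 1.02 ± 0.10 from P6 to 8 weeks, glmQLFTest FDR = 1.38e-10, glmTreat FDR = 0.593). Dguok, deoxyguanosine kinase, was at 16.8 ± 1.68, 26.6 ± 4.70 and 34.6 ± 4.31 CPM (log2FC 1.04 ± 0.09, glmQLFTest FDR = 5.83e-12, glmTreat FDR = 0.413). Both rose in each interval without a fold threshold, and neither passed 2-fold.

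Of 10 genes of mitochondrial DNA upkeep, 1 was called higher and 0 lower from P6 to 8 weeks. This was the nuclease Mgme1, at 10.9 ± 0.944 CPM at P6 and 24.2 ± 2.60 CPM at 8 weeks (log2FC 1.16 ± 0.08). Without a fold threshold, 7 of the 10 were higher and 0 lower, beside 37.8% and 36.6% of all genes, with a median log2FC of 0.34. Of 13 genes of nucleotide clearance and nucleoside breakdown, 3 were called lower and 0 higher: adenosine deaminase Ada (-1.41 ± 0.15), Dera (-1.40 ± 0.11) and Itpa (-1.23 ± 0.08), a pyrophosphatase for deaminated purine nucleotides. Of 8 genes of uracil and mismatch excision, 5 were called lower and 0 higher. Ung, the uracil-DNA glycosylase that removes the uracil DUT keeps out, went from 24.8 ± 2.88 CPM to 2.24 ± 0.718 CPM (log2FC -3.48 ± 0.15), and the DNA ligase Lig1 (-2.96 ± 0.08), the flap endonuclease Fen1 (-1.98 ± 0.10) and Tdg (-1.94 ± 0.07) were among the others.

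The S-phase and division genes fell with the synthesis genes. From P6 to P15 19 of 20 were called lower and from P15 to 8 weeks 13 of 20, with median log2FC of -2.28 and -1.72. From P6 to 8 weeks 20 of 20 were called lower, with a median log2FC of -3.89, and the largest falls were those of cyclin B1 (Ccnb1, -6.27 ± 0.21), cyclin A2 (Ccna2, -5.57 ± 0.16), the topoisomerase Top2a (-5.50 ± 0.14) and Ube2c (-5.44 ± 0.18). Since RRM2B is p53-inducible, 14 p53 target genes were examined, of which 1 was called lower and 1 higher. Sesn1 was higher (46.1 ± 4.72 CPM at P6 and 114 ± 12.8 CPM at 8 weeks, log2FC 1.31 ± 0.10), and Eda2r was lower, with 29 to 210 counts per mouse at P6 and 0 to 11 at 8 weeks. SAMHD1 is interferon-inducible in many cells. Of 15 interferon-stimulated genes tested, 3 were called higher from P6 to 8 weeks and 0 lower: Ifit3 (log2FC 1.77 ± 0.20), Usp18 (1.59 ± 0.20) and Mx1 (1.31 ± 0.18), and the median of the 15 was 0.63. Without a fold threshold, 11 of the 15 were higher and 0 lower from P6 to P15 (30.4% and 31.4% of all genes). From P15 to 8 weeks 6 were higher and 1 lower (24% and 23.9%). The part of p53 in the Rrm2b values and of interferon in the Samhd1 values was not tested.

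**Figure D5:**
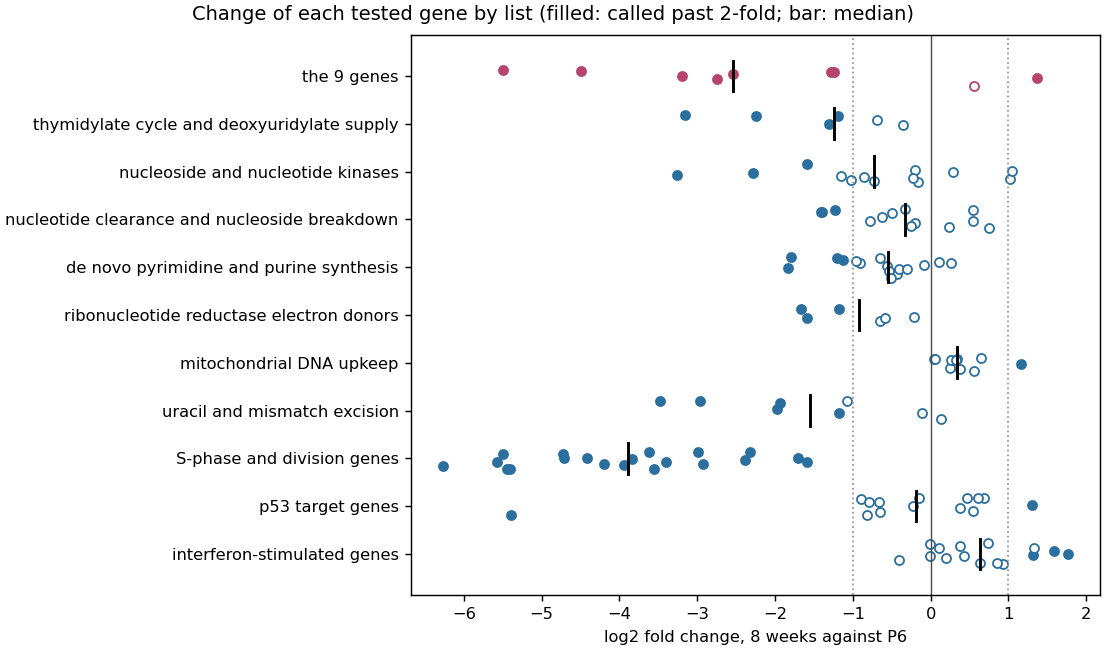
Log2 fold change from P6 to 8 weeks (horizontal axis) of each tested gene, by list (vertical axis); filled points were called past 2-fold, bars are list medians and dotted lines mark 2-fold. The S-phase and division genes are all filled, with a median of -3.89, while the mitochondrial DNA upkeep genes all lie above 0, with 1 filled.

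Genes with the most similar course over the 6 groups of age and sex were sought among 14778 protein-coding genes by the smallest root mean square difference of centred mean log2 CPM. Nearest to Rrm2 were the replication factor Mcm10 (0.0833), Uhrf1 (0.0842), which brings the methyltransferase to newly copied DNA, and cyclin A2 (0.101). Their levels at P6 and 8 weeks were 22.9 ± 2.73 and 0.537 ± 0.168 CPM for Mcm10, 139 ± 17.9 and 3.40 ± 1.20 CPM for Uhrf1 and 83.6 ± 13.4 and 1.76 ± 0.528 CPM for Ccna2. Nearest to Rrm2b were the telomere protein gene Pot1b (0.0339, log2FC from P6 to 8 weeks 1.33 ± 0.16), Fpgt (0.0546, 1.28 ± 0.16) and Tbc1d23 (0.0552, 1.36 ± 0.14). Nearest to Samhd1 were D1Ertd622e (0.0426, 0.48 ± 0.09), Ccdc71l (0.0427, 0.56 ± 0.08) and the protein disulphide isomerase Pdia3 (0.0450, 0.51 ± 0.10).

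The other markers of the captured cells changed with age as well. Of the 6 cerebellar granule precursor markers, 5 were called lower from P6 to 8 weeks; their sum was 68.5 to 917 CPM at P6 and 28.4 to 102 CPM at 8 weeks, and the defining marker Atoh1 was at 0 in all 12 mice at 8 weeks and in 1 of 10 at P6. Neuron markers summed to 276 to 926 CPM at P6 and 48.4 to 212 CPM at 8 weeks, with 3 of 6 called lower. Monocyte and macrophage markers summed to 724 to 1577 CPM at P6 and 366 to 719 CPM at 8 weeks, with 2 of 9 called lower and 2 higher. Of 10 lymphocyte and neutrophil markers, 5 were called higher and 0 lower, at summed levels of 22.1 to 73.7 CPM at P6 and 45.0 to 245 CPM at 8 weeks. Oligodendrocyte lineage markers had 3 of 8 lower and 2 higher, astrocyte markers 1 of 5 higher, endothelial and pericyte markers 2 of 6 higher and erythroid markers 1 of 6 lower. Progenitors divide too, and their part in the falls of Rrm1, Rrm2, Tyms and Tk1 was not tested. The progenitor markers cover immature neurons as well, so their sum is not a measure of dividing cells. With the covariate, which cannot be told apart from age between P6 and 8 weeks, the log2FC from P6 to 8 weeks was -2.87 for Rrm1, -5.02 for Rrm2, -2.85 for Tyms and -5.09 for Tk1.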

How the data were processed

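The authors deposited raw counts of fragments per gene for 35 mice, whole numbers without filtering or normalisation. The submitters' processing notes name fastp 0.20.0, whose use on these reads the study's methods do not describe. Per the labels and these methods, directional paired-end reads were aligned to mm10/GRCm38 with STAR and counted with featureCounts in reverse-stranded mode. The annotation release is not given in the sources used here. Columns of no sample numbered 0. Genes were named from GENCODE M21 (55141 of 55401 identifiers matched).

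Groups are the labels' ages and sexes, and no library batch is named there. Tested genes reached 0.5 CPM in 5 mice or more (CPM is counts scaled to a common library total). Counts were scaled by TMM and fitted in edgeR 4.0.16 (R 4.3.3; glmQLFit, robust) with 1 mean per age and sex group over 34 mice. Age contrasts averaged the sexes, p-values were adjusted over all 17612 genes, and tests were two-sided. DESeq2 1.42.0 and limma 3.58.1 (voom with TREAT) were alternatives, as were other scaling, filters, mice and covariates. Log2 CPM used a prior count of 2. Ratios used scipy 1.17.1. Scripts were tested on simulated data. No library was a copy of another (chi-square per gene of 12.8 or more for the 85 pairs within groups).

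The 9 genes and all lists were chosen with earlier results of these data known. The genes named are the 9; from each list up to 4 lower and 4 higher with the largest absolute log2FC from P6 to 8 weeks among those called past 2-fold; and the 3 most similar to Rrm2, Rrm2b and Samhd1. Exceptions are marked in the text. Not every gene this rule names is reported here. Per-length levels used the principal (APPRIS) transcript, a choice made after the data were seen. Each mouse is 1 replicate. Values after ± are SDs between mice or SEs of the fit over mice. The floor of 3 counts covers counting error only, since fragments carry no molecular identifiers.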

Additional observations from a re-analysis of the deposited data

Results flagged for a closer look

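In all, 5 values stood far from the other mice of their group by Dixon's test at the 95% level, of 91 groups examined, where chance alone flags about 1 in 20 groups. P15 male 1 was the lowest of 6 P15 males for Rrm2b (5.13 CPM, the next being 12.1 CPM) and the highest for Dut (14.8 CPM, the next being 7.62 CPM). Among 6 females of 8 weeks, female 1 was the highest for Dut (6.70 CPM, the next being 4.17 CPM). In the same group, female 2 had the lowest log2 ratio of Rrm2 to Rrm1 (-3.52, the next being -2.71). Among the 10 mice at P6, female 5 had the lowest log2 ratio of Rrm2b to Rrm2 (-4.79, the next being -4.33).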

How the results depend on the processing

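Of 153 counts of genes called under an alternative, 143 stayed within 1.5 times the count reported. Without a fold threshold, 1 gene was higher from P6 to P15, 6 were lower and 2 higher from P15 to 8 weeks and 2 were higher from P6 to 8 weeks. The 1 gene called higher from P6 to 8 weeks, Rrm2b, was not called (0) by DESeq2, limma-voom with TREAT, library size scaling or the neural marker covariate; leaving out P6 females gave 0 to 1, as did each of the 34 mice in turn (chosen after seeing the data), where only the absence of P6 female 5 gave 0. The cause was not tested. The covariate turned Samhd1 to log2FC -0.273 (P15 against P6), -0.173 (8 weeks against P15) and -0.446 (8 weeks against P6). Of 459 single-gene values, 434 kept sign and call. All 104 ratio alternatives kept theirs, but the neural marker covariate was not applied to the ratios. Library size scaling put the median log2FC of all genes at -0.14 for P15 and -0.10 for 8 weeks against P6. The replicate numbers did not pair the mice (median r 0.03 over 80 same-numbered pairs, 27 of them over 0.1), and the replicate block left the counts at 5, 2 and 7 lower and 1 higher. The fewest fragments lay behind Rrm2 and Tk1 at 8 weeks, with 26 to 99 per mouse.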

Other observations

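P6 female 6, left out of the comparisons, had 118 CPM of Rrm1, 59.8 of Rrm2, 18.2 of Tyms and 26.2 of Tk1, each below the lowest of the other P6 mice. Its Rrm2b (11.1 CPM) and Dut (29.3 CPM) lay within their range. Dck (35.2 CPM), Dctpp1 (20.1 CPM) and Samhd1 (43.6 CPM) were below it. Its summed microglia markers were at 2508 CPM, beside 5597 CPM in the lowest of the other P6 mice, and its progenitor (2315 CPM), neuron (1528 CPM) and oligodendrocyte lineage (2242 CPM) markers were above the highest of them.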
